A study of Homo sapiens with 3 samples.

Results

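Glycolysis and the hypoxia response were followed through 31 genes, of 32732 shared by the 3 feature tables, during the conversion of human BJ fibroblasts toward neurons. The genes were taken by name from a fixed list of glucose transporters, glycolytic enzymes with their isoforms, regulators of pyruvate fate and hypoxia targets, and all 31 were found in each of the 3 libraries. BJ is a normal human foreskin fibroblast line. The day 0 library is labelled BJ cells, fibroblasts, and the day 3 and day 5 libraries are labelled FiN cells, induced neuron cells; all carry the genotype label WT and the treatment label reprogramming, so the day 0 label does not say whether induction medium had been added. By the labelled protocol, cells in medium with 10% serum were moved to an induction medium with 10 µM forskolin, an activator of adenylyl cyclase, then on day 2 to a maturation medium with 10 µM forskolin, and forskolin was withdrawn on day 5. Each day is represented by 1 library, so no statistical test between days was possible, and every interval below covers counting error only.

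Glycolysis splits glucose into pyruvate in the cytosol. Lactate dehydrogenase then converts pyruvate to lactate, or the mitochondria oxidise it. When oxygen is scarce, prolyl hydroxylases no longer mark hypoxia-inducible factors for destruction, and the factors bind DNA at a short core, ACGTG or GCGTG, and raise transporters, glycolytic enzymes and genes such as VEGFA and BNIP3. Cultured fibroblasts ferment much of their glucose, whereas mature neurons rely largely on mitochondrial oxidation.

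Expression was read as unique molecular identifiers (UMIs), each standing for 1 captured RNA molecule, given here as CPM, the count of a gene scaled to a fixed total of UMIs on the shared genes. UMIs count molecules and were not divided by gene length. Summed over 16773 cells, the day 0 library gave 246471041 UMIs. The day 3 library gave 18710180 from 11454 cells, and the day 5 library 50922769 from 9219 cells. Between 27 and 63 cell barcodes were shared by each pair of libraries. They also differed in kind. The labels describe nuclei prepared with a kit for chromatin accessibility at day 0 and day 3, and dissociated cells with a 3′ expression kit at day 5. The nuclear RNA MALAT1 took 3.14% of UMIs at day 0, 21.6% at day 3 and 7.35% at day 5, and genes with at least 100000 intron bases took 8.84%, 13.7% and 46.6% at those days. Mitochondrial genes took 6.45%, 0.745% and 5.01%, and ribosomal protein genes 16.8%, 4.26% and 2.12%. The median UMIs per cell were 14039, 1324 and 4374. Day 0 and day 3 thus differed in these measures although their labels describe the same preparation. Preparation, batch and day therefore cannot be told apart. Pan-neuronal markers summed to 94.2 CPM at day 0, 94.8 CPM at day 3 and 4630 CPM at day 5, with 3, 3 and 14 of 14 genes at 10 CPM or more, so the neuronal label found its markers in the day 5 library and not in the day 3 library. DCX and ELAVL4 had no UMI at day 0 or day 3. Of 12 fibroblast markers, 12, 12 and 4 reached 10 CPM at day 0, day 3 and day 5. The part of these cell type differences in the results below was not tested.

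The upstream sequences of 7 members are shown first, because the shares of their enzyme pairs differed between libraries (LDHA with LDHB, PFKFB4 with PFKFB3, ENO2 with ENO1), and because EGLN3 was the sole member called higher at day 5 over both earlier days. Each is the stretch of 250 bases before the first transcription start listed by RefSeq (build GRCh38.p14), on the strand of the gene and written 5′ to 3′. Capitals mark matches to ACGTG or GCGTG on either strand, the 2 forms of the core bound by hypoxia-inducible factors; a match is a run of letters, not a shown binding site. Such letters stood in 16 of 28 member promoters, against 43.1% of all 27305 promoters in the table; ACGTG alone stood in 11 of 28, against 18.7%. CACGTG, the E-box read by other factors, overlaps ACGTG and stood in 5 of 28 member promoters, against 6.49% of all. SLC2A3, VEGFA and NDRG1 were not matched.
LDHA, chr11:18394313-18394562, plus strand: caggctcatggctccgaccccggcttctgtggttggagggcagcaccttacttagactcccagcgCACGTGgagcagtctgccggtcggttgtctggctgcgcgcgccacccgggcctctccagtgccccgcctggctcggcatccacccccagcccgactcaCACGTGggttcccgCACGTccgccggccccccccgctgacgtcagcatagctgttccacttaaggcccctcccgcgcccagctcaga
LDHB, chr12:21657843-21658092, minus strand: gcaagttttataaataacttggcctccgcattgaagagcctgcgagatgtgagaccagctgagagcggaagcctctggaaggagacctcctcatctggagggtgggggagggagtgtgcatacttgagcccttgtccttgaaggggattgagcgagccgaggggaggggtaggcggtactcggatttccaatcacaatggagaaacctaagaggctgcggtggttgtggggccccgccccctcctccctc
PFKFB4, chr3:48556804-48557053, minus strand: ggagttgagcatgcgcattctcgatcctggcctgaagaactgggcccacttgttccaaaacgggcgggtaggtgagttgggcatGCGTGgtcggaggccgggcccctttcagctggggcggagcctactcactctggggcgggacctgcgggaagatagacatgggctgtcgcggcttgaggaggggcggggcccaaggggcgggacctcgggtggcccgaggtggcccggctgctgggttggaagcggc
PFKFB3, chr10:6144671-6144920, plus strand: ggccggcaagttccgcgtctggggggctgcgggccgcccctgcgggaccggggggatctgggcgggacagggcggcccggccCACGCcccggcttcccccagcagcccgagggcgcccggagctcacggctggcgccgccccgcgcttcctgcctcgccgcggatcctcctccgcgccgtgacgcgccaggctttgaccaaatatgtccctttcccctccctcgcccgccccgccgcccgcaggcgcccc
ENO2, chr12:6914330-6914579, plus strand: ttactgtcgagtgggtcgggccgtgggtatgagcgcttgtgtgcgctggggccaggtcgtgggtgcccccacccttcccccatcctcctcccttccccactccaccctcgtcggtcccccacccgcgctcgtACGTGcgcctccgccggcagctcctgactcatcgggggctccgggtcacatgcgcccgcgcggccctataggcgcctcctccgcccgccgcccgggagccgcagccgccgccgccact
ENO1, chr1:8878687-8878936, minus strand: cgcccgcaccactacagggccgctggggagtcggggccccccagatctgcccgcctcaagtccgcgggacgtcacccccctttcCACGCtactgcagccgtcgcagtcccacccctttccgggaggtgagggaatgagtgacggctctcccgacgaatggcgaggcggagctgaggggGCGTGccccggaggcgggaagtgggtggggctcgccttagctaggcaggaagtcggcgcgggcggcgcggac
EGLN3, chr14:33951075-33951324, minus strand: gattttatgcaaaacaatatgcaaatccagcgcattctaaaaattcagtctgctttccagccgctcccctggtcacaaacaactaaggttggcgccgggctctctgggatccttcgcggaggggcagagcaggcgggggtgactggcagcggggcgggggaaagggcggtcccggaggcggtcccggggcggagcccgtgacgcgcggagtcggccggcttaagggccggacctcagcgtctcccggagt
LDHA held such letters starting 185, 87 and 73 bases before its start, whereas the windows of LDHB and EGLN3 held none. PFKFB4 and PFKFB3 each held 1 run, 166 and 168 bases before their starts. ENO2 held 1 run at 118 bases and ENO1 held 2, at 166 and 72 bases. Among the members not printed, BNIP3 held 5 runs, ALDOC held 4, and PGK1 and HK2 held 3 each. The windows of SLC2A1, PDK1, P4HA2, PFKP, HK1, PGAM1, TPI1, PFKM, PKM and SLC16A3 held none.

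A gene was called higher or lower between libraries when its CPM differed at least 2-fold, the larger value was at least 10 CPM and the exact Poisson 95% intervals did not overlap. At day 3 over day 0, 29 members reached 10 CPM, of which 6 were called higher (PFKFB4, ENO2, VEGFA, PDK1, NDRG1 and PFKL) and 4 lower (PKM, PGAM1, HK1 and GAPDH). Over all 10431 genes at that level, 37.6% were called higher and 19.1% lower. The split depended on the scaling. With TMM scaling (trimmed mean of M values), which moved the median log2 ratio of all genes to -0.86 from 0.49, 1 member was called higher and 15 lower, and 14.5% and 46.5% of all genes were called those ways; PFKFB4 was the member still called higher, and the log2 ratios of the other 5 lay between 0.02 and 0.77. At day 5 over day 3, 2 of 30 members were called higher (EGLN3 and SLC2A1) and 23 lower, against 36.5% and 28.7% of 12623 genes, and TMM also gave 2 and 23. Between day 5 and day 0, 1 of 30 was called higher (EGLN3) and 22 lower, against 49.1% and 26% of 12084 genes; TMM gave 1 and 28. All 6 members called higher at day 3 over day 0 were among the 23 called lower at day 5 over day 3. These comparisons share the day 3 library, and the share of all genes with both calls was not counted. Nothing particular to the members can be read from this overlap.

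**Figure D1:**
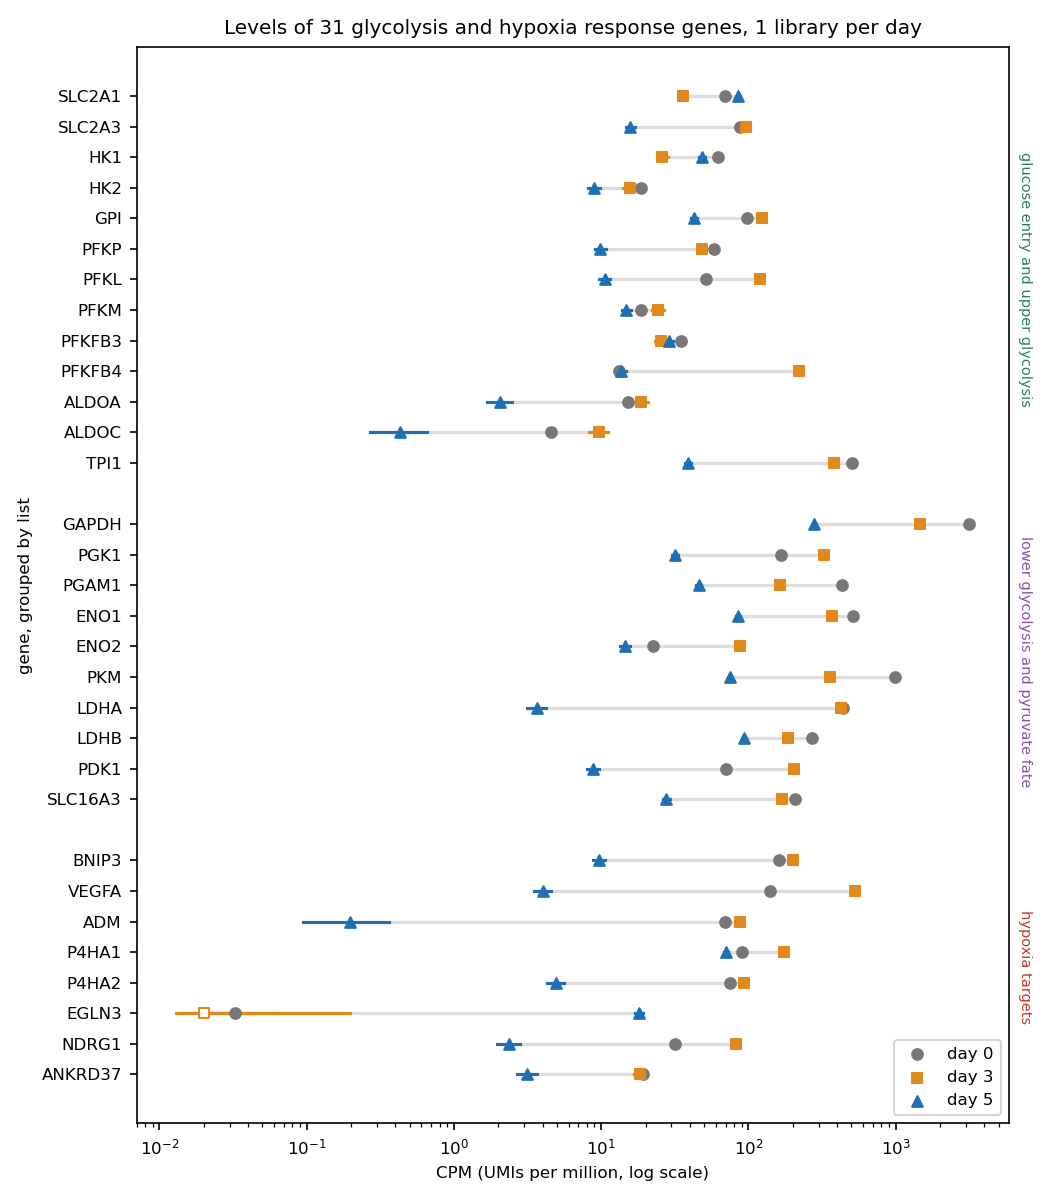
CPM of each of the 31 genes on a log axis in the day 0, day 3 and day 5 libraries (1 library per day); bars are exact Poisson 95% intervals and the open marker stands for EGLN3 at 0 UMIs on day 3, drawn at a nominal value. Most day 5 values lie left of the others; EGLN3 at 18.1 CPM and SLC2A1 at 85.6 CPM on day 5 lie to the right of their other values.

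The larger share of glucose transporter UMIs was on SLC2A3 at day 0 and day 3 and on SLC2A1 at day 5. SLC2A1 (GLUT1), the transporter of fibroblasts, glia and many growing cells, had 69.0 CPM at day 0, 35.7 CPM at day 3 and 85.6 CPM at day 5. By totals it was not called at day 3 over day 0. With TMM it was called lower (log2 ratio -2.15), as it was with the strict cell filter (-1.50). It was 2.40-fold higher at day 5 than at day 3 (counting interval 2.21 to 2.60). That call was lost when the day 5 profile of free RNA was subtracted (log2 ratio 0.51). SLC2A3 (GLUT3), known as the high-affinity transporter of neurons, had 87.7 CPM at day 0, 96.0 CPM at day 3 and 15.7 CPM at day 5, and was 6.10-fold lower at day 5 than at day 3 (5.61 to 6.64). Its log2 ratio at day 3 over day 0 was 0.13 by totals and -1.07, called lower, with TMM. Of the UMIs on SLC2A1 to SLC2A4, SLC2A1 took 44.0% at day 0, 27.1% at day 3 and 83.6% at day 5 (exact binomial 95% interval 82.5 to 84.6), and SLC2A3 took 55.9%, 72.8% and 15.4%. The transporter known for neurons was thus the smaller share in the library that held neuronal markers. In the 5 day 5 clusters with at least 3 pan-neuronal markers at 2-fold, which held 2859 of 9219 cells, SLC2A3 stood at 13.1 CPM, against 17.3 CPM in the other clusters, and SLC2A1 at 65.8 CPM, against 97.0 CPM.

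Hexokinases, which trap glucose as its phosphate, kept HK1 as the larger share. HK1, the form bound to mitochondria in brain and most tissues, had 61.8 CPM at day 0, 26.1 CPM at day 3 and 48.4 CPM at day 5; its share was 76.4%, 62.1% and 82.5%. HK2, the inducible form, had 18.7 CPM at day 0, 15.7 CPM at day 3 and 8.95 CPM at day 5, and was called lower at day 5 over day 0 (2.09-fold, 1.90 to 2.31). That HK2 call was lost under 5 other settings, with log2 ratios of -0.22 (cells thinned to 1000 UMIs) to -0.99 (every day 5 barcode of at least 1000 UMIs). GPI, the isomerase that follows, had 97.9 CPM at day 0, 124 CPM at day 3 and 42.7 CPM at day 5, and was called lower at day 5 in both comparisons; the call over day 0 was lost with thinned cells (log2 ratio -0.97), the mean of per-cell CPM (-0.86) and the low-UMI barcodes described further on (-0.80).

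The phosphofructokinases, which commit sugar to glycolysis, had a different leading isoform in the cells of each library. PFKL, the liver form, had 51.5 CPM at day 0, 119.6 CPM at day 3 and 10.6 CPM at day 5, so that it was 2.32-fold higher at day 3 than at day 0 and 11.3-fold lower at day 5 than at day 3 (10.3 to 12.5). PFKP, the platelet form, had 58.8, 48.0 and 9.86 CPM at day 0, day 3 and day 5, and led at day 0 with 45.6% of the family. PFKM, the muscle form, had 18.6, 24.3 and 14.8 CPM at those days and was not called with scaling by totals (with TMM it was called lower at day 5 over day 0, log2 ratio -1.47, and with free RNA subtracted at day 5 over day 3, -1.16). PFKM led in the day 5 cells with 42.0% (39.7 to 44.4), against 12.7% at day 3. In the low-UMI barcodes described further on, PFKL led with 39.4%, against 36.1% for PFKM. The leading isoform at day 5 thus depends on the barcodes counted. PFKM overlaps SENP1 on the opposite strand, which had 44.3 CPM at day 5, and no source used here says whether counting was by strand.

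PFKFB4 showed the largest difference of any member between day 3 and day 0. PFKFB enzymes make and break fructose 2,6-bisphosphate, the strongest activator of phosphofructokinase, and PFKFB4 is known as a hypoxia target. PFKFB4 (GRCh38 chr3:48517684-48562015, minus strand) had 13.2 CPM at day 0, 221 CPM at day 3 and 13.7 CPM at day 5. The day 3 library alone was high, 16.8-fold above day 0 (16.0 to 17.6), and day 5 was 16.1-fold below day 3 (14.9 to 17.5). Day 5 was 1.04-fold above day 0 by totals, but below it with TMM (log2 ratio -1.08, called lower). PFKFB3, the isoform with the greatest kinase bias, had 34.7 CPM at day 0, 25.5 CPM at day 3 and 29.1 CPM at day 5 and was not called with scaling by totals; with TMM it was called lower at day 3 over day 0 (log2 ratio -1.64) and at day 5 over day 0 (-1.39). PFKFB4 took 26.8% of the family at day 0, 88.3% at day 3 and 27.4% at day 5, with PFKFB3 at 70.5%, 10.2% and 58.1%. UCN2, annotated on the same strand within the span of PFKFB4, had 2.31 CPM at day 0, 30.9 CPM at day 3 and 0 UMIs at day 5.

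Aldolases and triose phosphate isomerase, which cut the sugar and interconvert the pieces, were low at day 5. TPI1 had 501 CPM at day 0, 381 CPM at day 3 and 39.0 CPM at day 5, 9.77-fold lower at day 5 than at day 3 (9.29 to 10.3). ALDOA, the muscle and fibroblast aldolase, had 15.2, 18.6 and 2.04 CPM at day 0, day 3 and day 5; it overlaps another annotated gene on the same strand, so this low level is uncertain. ALDOC, the brain form, had 4.53, 9.67 and 0.432 CPM and never reached 10 CPM; AC005726.1, on the same strand across it, had 2.03, 22.7 and 15.9 CPM, so the level of ALDOC is uncertain as well.

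**Figure D2:**
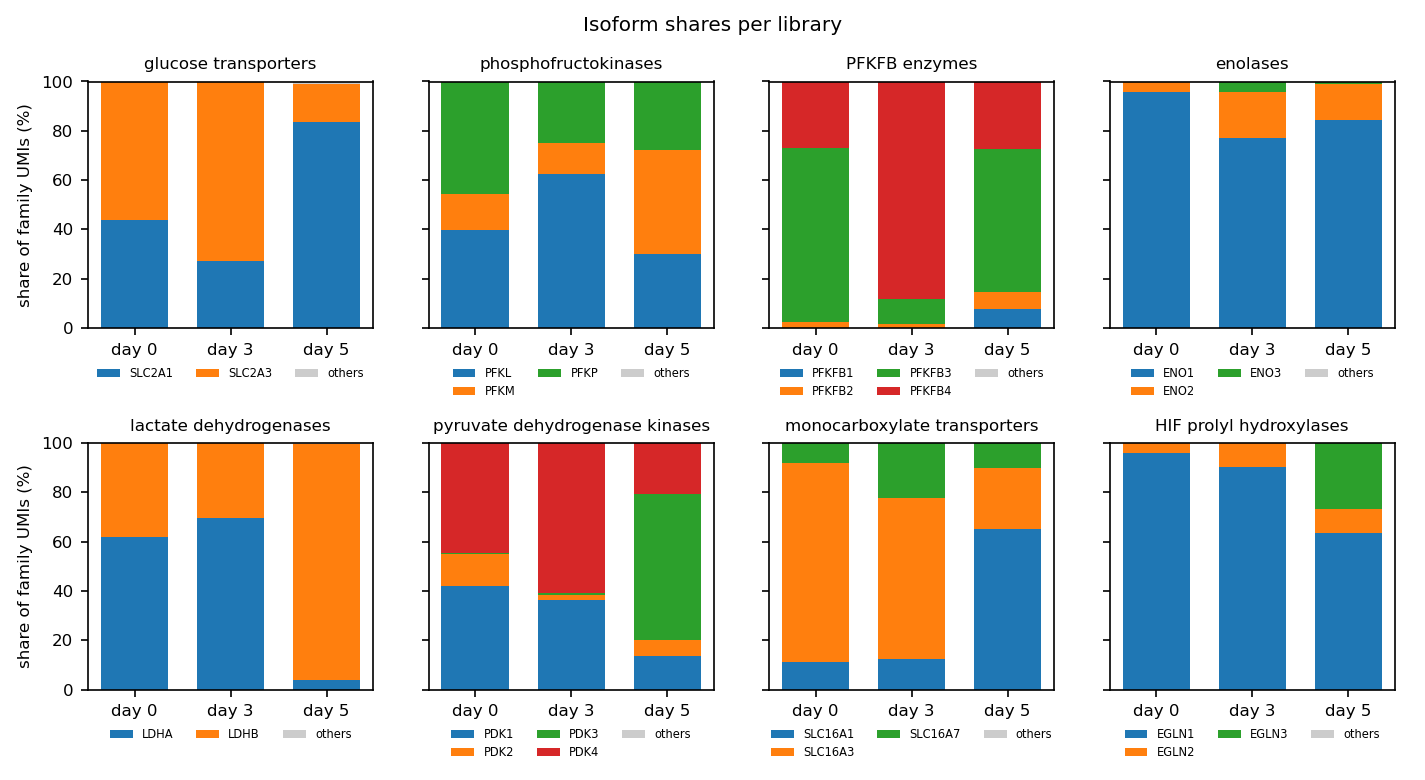
Share of the UMIs of 8 enzyme or transporter families, in percent of the family, taken by each isoform in the day 0, day 3 and day 5 libraries; isoforms under 3% in every library are joined as others. LDHB fills 96.0% of its family at day 5 and PFKFB4 88.3% of its family at day 3.

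In the lower part of glycolysis, 9 of 10 genes were called lower at day 5 over day 3, where 28.7% of all genes and 72.6% of genes under 5000 intron bases were; 4 of the 9 calls were lost with the low-UMI barcodes described further on. GAPDH, which makes the first NADH of the pathway and was the most abundant member in every library, had 3150.4 CPM at day 0, 1455 CPM at day 3 and 279 CPM at day 5. Its day 3 level was 2.17-fold below day 0 (2.14 to 2.19) and its day 5 level 5.21-fold below day 3 (5.10 to 5.32). PKM, pyruvate kinase, had 985, 357 and 75.3 CPM at day 0, day 3 and day 5, and PGAM1, the mutase, had 435, 163 and 46.0 CPM. These 3 genes were called lower at each step. ENO1, the common enolase, had 514, 369 and 85.1 CPM. By totals it was called lower at day 5 over day 3 but not at day 3 over day 0. With TMM it was called lower at day 3 over day 0 too (log2 ratio -1.68). PGK1, the first enzyme to make ATP and a classical hypoxia target, had 167 CPM at day 0, 328 CPM at day 3 and 31.7 CPM at day 5. Its day 3 level was 1.97-fold above day 0 (1.92 to 2.02), short of the 2-fold threshold, and with TMM the log2 ratio was -0.22. GAPDH, PGAM1, ENO1 and LDHA have processed pseudogenes, and the treatment of reads they share was not stated, so their levels carry that uncertainty.

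ENO2, the enolase known as neuron-specific enolase and also as a hypoxia target, was highest at day 3. It had 22.5 CPM at day 0, 87.7 CPM at day 3 and 14.6 CPM at day 5, 3.90-fold higher at day 3 than at day 0 (3.69 to 4.12) and 6.02-fold lower at day 5 than at day 3 (5.52 to 6.58). Its share of enolase UMIs was 4.18% at day 0, 18.4% at day 3 and 14.4% at day 5. The day 5 share was 7.42% in the low-UMI barcodes and 35.7% with free RNA subtracted, so its order against day 3 is not settled. In the neuron-like clusters of day 5 it had 12.9 CPM, against 15.5 CPM in the others, so it was not higher in the clusters with neuronal markers. ENO3, the muscle enolase, was also highest at day 3, with 1.12 CPM at day 0, 21.2 CPM at day 3 and 1.16 CPM at day 5.

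Lactate dehydrogenase had nearly all its UMIs on 1 isoform at day 5. LDHA (GRCh38 chr11:18394388-18408425, plus strand), the subunit that favours lactate formation and is a hypoxia target, had 437 CPM at day 0, 427 CPM at day 3 and 3.65 CPM at day 5. By totals, day 0 and day 3 were within 1.02-fold of each other, but with TMM day 3 was called lower than day 0 (log2 ratio -1.23). Day 5 was 117-fold below day 3 (101 to 136). LDHB (GRCh38 chr12:21635342-21757857, minus strand), the subunit that favours use of lactate in heart and neurons, had 270.1, 185 and 93.7 CPM at day 0, day 3 and day 5, 1.97-fold lower at day 5 than at day 3 (1.89 to 2.06) and thus not called. With free RNA subtracted LDHB was called lower (log2 ratio -2.82), and in the low-UMI barcodes it was called higher (1.10). The subtracted profile was that of the same barcodes, so these 2 settings are not independent. LDHB was also called lower with 3000 expected cells (-1.07) and with totals without mitochondrial, ribosomal protein and MALAT1 UMIs (-1.20). The direction of LDHB thus depends on the barcodes counted, and its call also on the scaling. LDHA took 61.8% of the family at day 0, 69.7% at day 3 and 3.74% at day 5 (186 of 4969 UMIs, exact binomial 95% interval 3.23 to 4.31); LDHB took 38.2%, 30.2% and 96.0%. The LDHA share at day 5 ranged between 2.80% and 4.02% over 8 alternatives. It was low in all 11 clusters of the day 5 library, where LDHA lay between 2.32 and 11.3 CPM and LDHB between 50.8 and 165 CPM.

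Regulators of pyruvate fate also differed in leading isoform. PDK1, the hypoxia-induced kinase that blocks pyruvate dehydrogenase, had 70.0 CPM at day 0, 202 CPM at day 3 and 8.78 CPM at day 5, 2.89-fold higher at day 3 than at day 0 (2.79 to 3.00) and 23.1-fold lower at day 5 than at day 3 (20.9 to 25.5). Within the kinase family, PDK4, the form raised by fasting, led at day 0 with 44.7% and at day 3 with 60.8%, while PDK3 led at day 5 with 59.4%, against 0.876% at day 3. SLC16A3 (MCT4), which exports lactate, had 206 CPM at day 0, 170.0 CPM at day 3 and 27.7 CPM at day 5, and took 80.6%, 65.3% and 24.5% of the monocarboxylate transporter UMIs. SLC16A1 (MCT1), which carries lactate in either direction, took 65.3% at day 5. The SLC16A3 share at day 5 depended on the choice of barcodes, described further on, and SLC16A3 overlaps CSNK1D on the opposite strand.

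Of the 8 members listed as hypoxia targets, 2 of the 7 at 10 CPM were called higher at day 3 over day 0, where 37.6% of all genes were, and with TMM 0 were called higher and 1 lower. Of all 8, 7 were called lower at day 5 over day 3, where 28.7% of all genes were. VEGFA, the growth factor of blood vessels, had 141 CPM at day 0, 532 CPM at day 3 and 4.01 CPM at day 5, 3.78-fold higher at day 3 than at day 0 (3.70 to 3.86) and 133-fold lower at day 5 than at day 3 (116 to 153). NDRG1, a stress-response gene of growth arrest, had 31.9, 82.1 and 2.36 CPM at day 0, day 3 and day 5. BNIP3, which directs mitochondria to autophagy, had 161 CPM at day 0, 202 CPM at day 3 and 9.68 CPM at day 5, and was 20.8-fold lower at day 5 than at day 3 (19.0 to 22.9). ADM, the vasodilator peptide adrenomedullin, had 69.6 CPM at day 0, 88.2 CPM at day 3 and 10 UMIs or 0.196 CPM at day 5, the lowest level of any member in that library. ANKRD37, a small ankyrin-repeat gene, had 19.3, 18.5 and 3.14 CPM. These 5 genes all had their lowest value at day 5.

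The prolyl 4-hydroxylases of collagen separated from one another. P4HA1, the main catalytic subunit, had 90.7 CPM at day 0, 175 CPM at day 3 and 70.1 CPM at day 5, 2.50-fold lower at day 5 than at day 3 (2.38 to 2.62). P4HA2 had 74.6, 93.3 and 4.91 CPM at day 0, day 3 and day 5, 19.0-fold lower at day 5 than at day 3 (16.6 to 21.8). P4HA3, the third subunit gene, made up 3.78% of the family at day 0, 31.9% at day 3 and 36.5% at day 5. P4HA2 made up 43.4%, 23.7% and 4.16%. In the low-UMI barcodes described further on, P4HA1 made up 77.3%, against 59.4% in the day 5 cells, and P4HA2 made up 11.8%. The day 5 shares of this family, that of P4HA3 included, thus depend on the barcodes counted. P4HA2 overlaps PDLIM4 on the opposite strand, which had 101 CPM at day 0.

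EGLN3 was the sole member called higher at day 5 in both comparisons. It encodes PHD3, a prolyl hydroxylase that marks hypoxia-inducible factors for destruction and is itself a hypoxia target. EGLN3 (GRCh38 chr14:33924231-34462774, minus strand) had 8 UMIs or 0.0325 CPM at day 0, 0 UMIs at day 3 and 920 UMIs or 18.1 CPM at day 5. With the count of 0 at day 3 set at the floor of 3 UMIs (0.160 CPM), day 5 was 113-fold higher than day 3. That floor is a set value and not an upper limit, so the ratio depends on it. The day 5 level of EGLN3 was 557-fold higher than day 0 (281 to 1293). Its share of the 3 hydroxylases EGLN1 to EGLN3 was 0.117% at day 0, 0% at day 3 and 26.8% at day 5. The gene span in the annotation overlaps SPTSSA on the same strand, which had 73.3, 67.3 and 14.3 CPM at day 0, day 3 and day 5 and so did not move with it. The long annotated span of EGLN3 comes from long transcripts: its intron length was 24142 bases as the median over transcripts. EGLN3 had 18.1 CPM in day 5 cells and 19.3 CPM in barcodes of 500 to 1000 UMIs, so its signal was as high outside the called cells.

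The factors that act above these targets were counted next. Of 12 genes of the pathway machinery at 10 CPM or more, 7 were called higher and 0 lower at day 3 over day 0. Over all genes, 37.6% were called higher and 19.1% lower. The median log2 ratio was 1.19, against 0.49 over all genes. With TMM, 0 of 11 were called either way, where 14.5% of all genes were called higher and 46.5% lower. The median was then -0.18, against -0.86 over all genes. HIF1A, the factor of acute hypoxia, had 208 CPM at day 0, 421 CPM at day 3 and 113 CPM at day 5, and ARNT, its partner, had 12.8, 50.5 and 60.8 CPM. Of 13 such genes at day 5 over day 3, 3 were called higher and 6 lower. The shares over all genes were 36.5% and 28.7%. EPAS1 (HIF-2α) had 86.3 CPM at day 0, 139.9 CPM at day 3 and 0.943 CPM at day 5, a 148-fold lower level at day 5 than at day 3 (112 to 202). HIF3A, a member with known inhibitory forms, had 1 UMI at day 0, 7 UMIs at day 3 and 577 UMIs or 11.3 CPM at day 5.

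A further 30 known hypoxia targets, outside the 31 genes, were counted alongside. At day 3 over day 0, 16 of the 25 at 10 CPM or more were called higher and 4 lower. The shares over all genes were 37.6% and 19.1%. The median log2 ratio was 1.57 where that of all genes was 0.49. With TMM, 7 of 26 were called higher and 9 lower, and the median was 0.36, against -0.86 over all genes. PPFIA4 had the largest ratio, with 37.2 CPM at day 3, against 0.406 CPM at day 0. At day 5 over day 3, 1 was called higher (BHLHE41) and 20 lower, where 36.5% and 28.7% of all genes were. The median log2 ratio was -2.50 where all genes stood at 0.16. STC1 had the smallest, with 7.74 CPM at day 5, against 3386 CPM at day 3.

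The mitochondrial side of glucose use was followed in the same way. At day 3 over day 0, where 37.6% of all genes were called higher and 19.1% lower, 1 of 38 nuclear genes of oxidative phosphorylation was called higher and 22 lower; with TMM, 0 and 34 were. At day 5 over day 3, where the shares were 36.5% and 28.7%, 0 were called higher and 17 lower. Set against genes of similar intron length, as described further on, 7 were at least 2-fold higher and 3 lower. Over all genes, 28.9% and 26.4% were. At day 3 over day 0 the same measure gave 1 higher and 26 lower. ATP5F1E, an ATP synthase subunit, had 1407 CPM at day 0, 165 CPM at day 3 and 126 CPM at day 5. Of 19 genes of the tricarboxylic acid cycle, 0 were called higher and 2 lower at day 3 over day 0 by totals, 0 and 13 with TMM, and 3 higher and 3 lower at day 5 over day 3. SUCLG2 had 91.0 CPM at day 5, against 19.1 CPM at day 3, and IDH3B had 13.7 CPM at day 5, against 46.9 CPM at day 3. MPC2, a subunit of the mitochondrial pyruvate carrier, had 415, 57.6 and 15.7 CPM at day 0, day 3 and day 5. Genes of cytosolic ribosomal proteins, which like GAPDH and TPI1 are short and abundant, gave 0 higher and 28 lower of 30 at day 3 over day 0, and 0 higher and 17 lower at day 5 over day 3. Against genes of similar intron length, 0 were at least 2-fold higher and 29 lower at day 3 over day 0. At day 5 over day 3, 6 were higher and 0 lower.

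The libraries differed strongly by intron length, so each member was set against genes of its own class. The class medians of the log2 ratio over all genes at day 5 over day 3 were -1.75 under 5000 intron bases, -0.78 between 5000 and 20000, 0.41 between 20000 and 100000 and 2.37 above. In each class the members lay lower: 7 of 7, 6 of 6, 11 of 12 and 4 of 5 were below the class median. The spans of PGK1, LDHB and PFKFB3 are also stretched by long transcripts, which puts them in the longest class. Counting a 2-fold distance from the class median, 1 member of 30 was higher and 25 lower, where 28.9% and 26.4% of all genes were. LDHA lay 6.09 log2 units below its class, VEGFA 5.31 below and ADM 7.06 below, whereas GAPDH lay 0.63 below and PGAM1 0.07 below. EGLN3 lay 4.44 above. Between day 5 and day 0, 1 member was higher and 25 lower than the class by 2-fold, where 34.2% and 31.7% of all genes were. At day 3 over day 0, 4 members were higher and 7 lower, where 27.4% and 26.4% of all genes were, and 17 of 29 members lay below their class median; PFKFB4 lay 3.51 above and HK1 2.16 below. Class distances depend little on how the libraries are scaled; with TMM, 16 of 29 lay below.

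**Figure D3:**
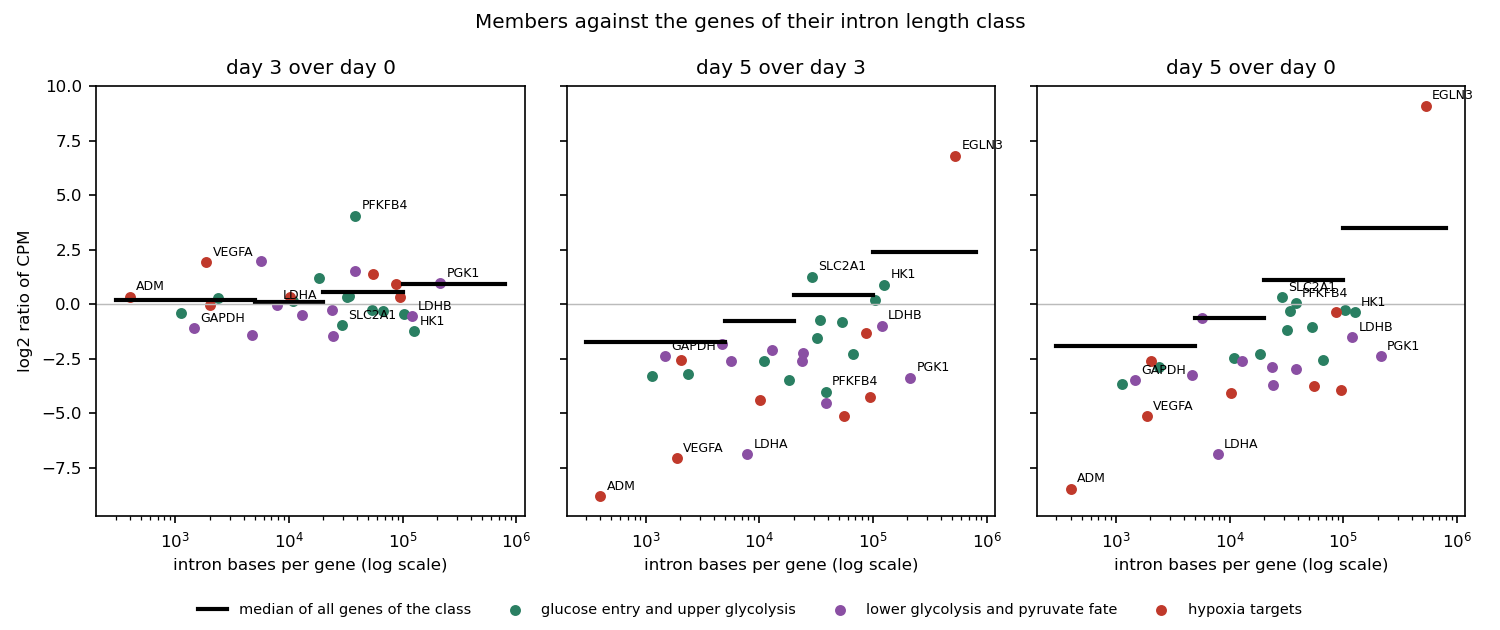
Log2 ratio of CPM for the members at 10 CPM or more in 1 of the 2 libraries, against the intron bases of each gene on a log axis, in the 3 comparisons; black lines are the medians of all genes of the same intron length class. At day 5 over day 3, 28 of 30 members lie below their line, and EGLN3 lies 4.44 log2 units above it.

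The day 5 deposit also held barcodes below the cell threshold, and the members were read there as well. In 50613 barcodes of 500 to 1000 UMIs, genes with at least 100000 intron bases made up 193620.2 CPM, against 465771 CPM in the cells, and 15 of 24 members at 10 CPM were at least 2-fold higher than in the cells. Of all genes at 10 CPM 23.4% were, and of those under 5000 intron bases 75.9%. GAPDH had 279 CPM in day 5 cells, against 1499.9 CPM in these barcodes and 1455 CPM at day 3. ENO1 had 85.1 CPM in the cells, against 382 CPM in the barcodes and 369 CPM at day 3. With the barcodes in place of cells, GAPDH, ENO1, PKM and PGAM1 were no longer called lower at day 5 over day 3, while SLC2A1, HK1, LDHB and EGLN3 were called higher. LDHA had 3.65 CPM in the cells, against 16.7 CPM in the barcodes. VEGFA had 4.01 CPM in the cells, against 11.6 CPM, and BNIP3 9.68 CPM, against 24.6 CPM. These too were thus more than 2-fold higher in the barcodes, and their distance from day 3 was large enough that each was still called lower. PDK1 (8.78 CPM in the cells, against 5.77 CPM) and ADM (0.196 CPM, against 0.422 CPM) were also still called lower. All 7 listed hypoxia targets called lower in the cells were called lower there as well. In the barcodes LDHA took 4.02% of its family, and SLC16A3 took 3.49% of the monocarboxylate transporters, against 24.5% in the cells. The day 5 level of GAPDH, ENO1, PKM and PGAM1 thus depends on which barcodes are counted, while the calls of these hypoxia targets were made with either. With these barcodes 4 members of 30 were called higher and 19 lower, where 29.9% and 25.9% of all genes were.

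**Figure D4:**
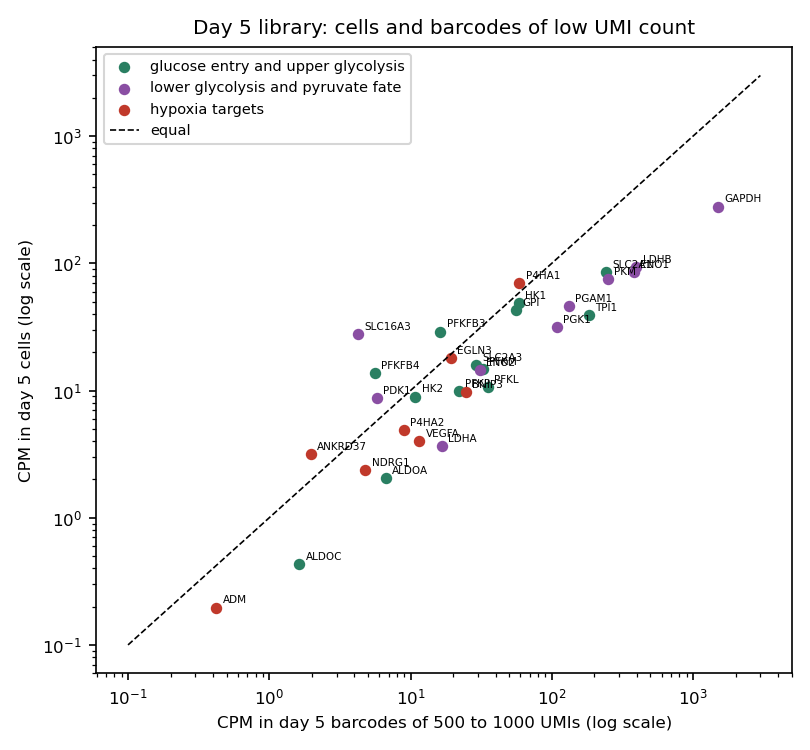
CPM of the 31 genes in day 5 cells (vertical log axis) against barcodes of 500 to 1000 UMIs of the same library (horizontal log axis); the dashed line marks equal values. GAPDH, at 279 CPM in cells and 1499.9 CPM in the barcodes, lies far right of the line, and SLC16A3, at 27.7 CPM in cells and 4.24 CPM in the barcodes, lies left of it.

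Within each library the members were read in clusters that had been formed without them. At day 0, 2 clusters led by RAB13 held 43.8% of cells but 5.57% of UMIs, with MALAT1 at 0.174% of UMIs, against 3.32% in the other 4 clusters. They held GAPDH at 5607 CPM, against 3005 CPM in the others, and LDHB at 555 CPM, against 253 CPM. Several transporters and targets were lower: SLC2A1 had 7.72 CPM, against 72.6 CPM, VEGFA 14.6 CPM, against 148 CPM, PDK1 7.57 CPM, against 73.7 CPM, and ADM 7.50 CPM, against 73.3 CPM. Other targets were not: BNIP3 had 148 CPM, against 162 CPM, and LDHA 530.4 CPM, against 431 CPM. Of 29 members at 10 CPM, 1 was 2-fold higher and 14 were 2-fold lower in these clusters, where 2.46% and 59.4% of all genes were. Leaving the 2 clusters out moved the day 3 over day 0 counts to 6 higher and 5 lower.

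At day 3, VEGFA stood apart in 1 cluster. The cluster led by RORB and GNAO1 held 22.1% of cells and 52.8% of the VEGFA UMIs, at 1651 CPM, against 303 CPM in the other clusters combined. No other member at 10 CPM differed 2-fold between that cluster and the rest. PFKFB4 came closest, at 125 CPM, against 241 CPM. Of all 10201 genes at 10 CPM, 10.8% were 2-fold higher in that cluster and 6.80% were 2-fold lower. Without the cluster VEGFA was still called higher at day 3 over day 0. PFKFB4 was above 100 CPM in all 5 clusters of day 3 and below 30 CPM in every cluster of the other 2 libraries at the resolution used; at a finer resolution 1 day 0 cluster had 51.8 CPM.

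In the day 5 library, EGLN3 was detected in all 11 clusters and was highest in clusters led by DGKG (35.4 CPM) and by NFE2L3 (52.8 CPM, 128 cells), and the 5 neuron-like clusters had 10.9 CPM, against 22.2 CPM in the others. P4HA1 had 40.1 CPM in the neuron-like clusters, against 87.3 CPM. These were the only 2 of 23 members at 10 CPM that differed 2-fold in that division, where 7.69% of all genes were 2-fold higher and 7.13% lower. SLC2A1 was highest in clusters led by AL357507.1 (148 CPM), by NFE2L3 (147 CPM) and by SMOC1 and PAX3 (140 CPM). GAPDH was lowest, at 142 CPM, in the neuron-like cluster led by CNTN5. The low LDHA and VEGFA levels were common to neuron-like and other clusters: LDHA had 3.17 CPM, against 3.93 CPM, and VEGFA 2.96 CPM, against 4.61 CPM.

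**Figure D5:**
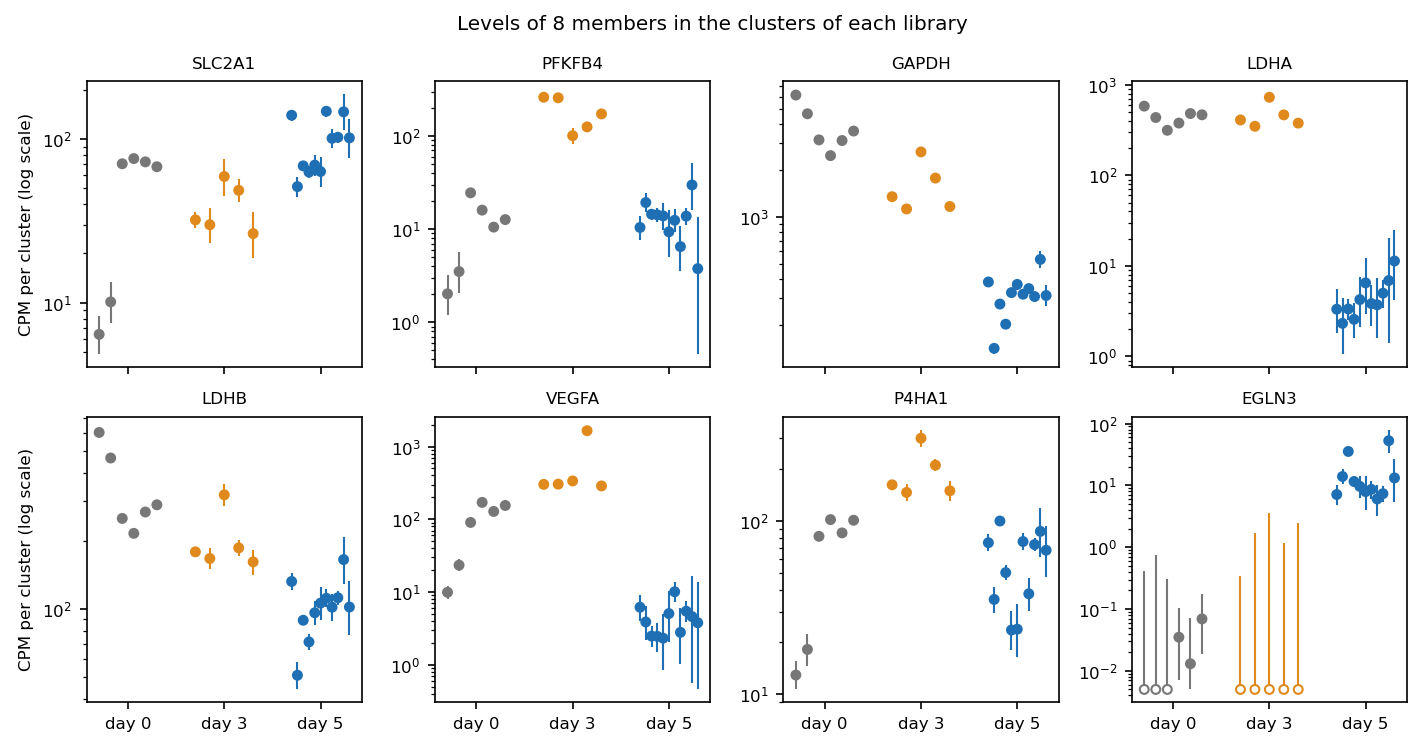
CPM of 8 members (log axes) in each cluster of the day 0, day 3 and day 5 libraries, with exact Poisson 95% intervals; open markers stand for 0 UMIs and are drawn at a nominal value. VEGFA has 1 high cluster at day 3, at 1651 CPM, and LDHA is at 11.3 CPM or less in every day 5 cluster.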

How the data were processed

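UMI counts per gene and barcode were deposited by the authors as made with Cell Ranger 4.0.0 on GRCh38, per the submitters' processing notes; the day 0 file header names software version 3.0.1, and the feature tables list 33538 genes at day 0 and day 3 and 36601 at day 5, so the gene annotation differed; its part in the day 5 differences was not tested. The sources used here do not state whether intronic reads or strand were used. The values are raw counts, 1 library per day, so no test was run, and cells were not treated as replicates. Cells needed 500 UMIs, 300 genes and at most 20% mitochondrial UMIs; the day 5 file is unfiltered, and its cells also needed 2155 UMIs. Counts were summed per library over 32732 shared genes and scaled to CPM, with exact Poisson 95% intervals and 3 UMIs as the floor; intervals cover counting error only. No doublet caller was run; leaving out the 5% of cells with the most UMIs was an alternative. Intron lengths came from GENCODE 29. Clusters (scanpy 1.11.5, Leiden) left out the genes of the pathway lists and enzyme families. The listed cell type markers were not left out, and clusters were named neuron-like from them. The call rule was checked on simulated counts with set fold changes and Poisson error only. That check held no difference of preparation between libraries and so does not cover one. All 31 members are named; of other lists, the extreme called genes per comparison and isoforms with at least 10% of a family; overlapping genes and a few factors of the pathway were named after their values were seen. A few genes this rule selects are not reported here. Members and lists were chosen with earlier results of these data known. There were 12 planned and 4 added alternatives, with TMM from edgeR 4.0.16.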

Additional observations from a re-analysis of the deposited data

How the results depend on the processing

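No paired analysis was possible because each day has 1 library, and there was no replicate to leave out. Of the member log2 ratios under the alternatives, 934 kept their call or lack of one, 54 gained a call, 26 lost one and 9 reversed. A change of direction without a call, such as that of PGK1 at day 3 over day 0 with TMM, was counted among the 934. With day 5 barcodes of 500 to 1000 UMIs in place of cells, GAPDH was 0.044, ENO1 0.052 and LDHB 1.10 at day 5 over day 3, and LDHB 0.56 and PFKFB4 -1.23 at day 5 over day 0. SLC2A3 at day 3 over day 0 was -1.07 with TMM and -1.03 with median of ratios, and PFKFB4 at day 5 over day 0 was -1.08 and -1.07 with them. At day 3 over day 0, members called higher numbered 1 with TMM, 1 with median of ratios, 10 with the mean of per-cell CPM and 3 with a ratio of at least 3; those called lower numbered 15, 15 and, with a ratio of at least 3, 0. Members lower than their intron class numbered 4 at 50 CPM and 3 at a ratio of 3. At day 5 over day 3, those called higher numbered 1 with free RNA subtracted, 1 at 50 CPM, 1 at a ratio of 3 and 4 with the low barcodes. Members higher than their class numbered 2 with every barcode of at least 1000 UMIs, 2 with the strict filter, 2 with the low barcodes, 2 with classes at 10000 and 50000 bases and 2 with the median intron length over transcripts. At day 5 over day 0, those called higher numbered 2 with the mean of per-cell CPM, 0 at 50 CPM and 2 with the low barcodes; relative to class, 0 were higher at 50 CPM, 2 with the low barcodes, and 14 were lower at 50 CPM. Apart from the changes a stricter limit makes by construction, the causes were not tested. The low barcodes and the settings without a set of clusters or with the median intron length were chosen after seeing the data. At day 3, the floor of 3 UMIs used in ratios stood at 0.160 CPM.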
